A study of Homo sapiens with 4 samples.

Results

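The sites described here are gene desert sites of TBX3: places in annotated intergenic sequence, outside any annotated repeat and more than 250 kb from the nearest transcription start site (TSS), where chromatin immunoprecipitation followed by sequencing (ChIP-seq) gave a peak summit in both replicates. A replicate 1 peak was a member when its deposited annotation met these conditions and a replicate 2 summit within 200 bp was its mutual nearest neighbour. There were 585 members among the 22702 regions shared by the replicates, 2.58% (95% Wilson interval 2.38% to 2.79%), and they made up 10.9% of the 5362 shared regions in non-repeat intergenic sequence. The study used 501mel, an established human melanoma cell line, and an antibody to the HA tag (12CA5) on TBX3-3xHA. There were 2 ChIP samples and 2 inputs, sheared chromatin without immunoprecipitation, which were not analysed here. All groups are 1 cell line under 1 condition, and the labels do not say how the tagged protein was introduced or whether the replicates were separate cultures.

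TBX3 is a DNA-binding protein of the T-box family, acting mainly as a repressor in development, and T-box proteins recognise a short core sequence, AGGTGT, best in the longer form AGGTGTGA. Gene deserts are long stretches without protein-coding genes. Many flank genes for developmental regulators and hold enhancers that act over long distances, while others surround centromeres, where tandem satellite repeats replace genes.

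The replicate 1 list held 32479 peaks and the replicate 2 list 40494, with deposited scores from 2.01 to 789.3 and from 2.00 to 805.6. Scores are the authors' own values on a scale that is not stated, so each is given with its rank (1 is highest) or its percentile (100 is highest) within its own list. The number of sequencing reads behind a peak is unknown. With 1 condition there was no comparison between groups of samples, and shares of sites are given with Wilson intervals that cover counting error only and with no test.

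Sequence was at hand at a few members, because a RefSeq start site that the deposited annotation did not use lay at the summit. Of 558 members compared with such start sites, 4 had their replicate 1 summit inside a 300-base window from 250 bases before to 50 after such a start site (RefSeq, GRCh38.p14). All 4 start sites belong to non-coding RNAs. The windows of the strongest of them, at LINC02404, and of the one with its summit closest to a start site, at LOC102724463, are shown 5′ to 3′ on the plus strand so that the letters around the summits can be read. Capitals mark matches to AGGTGT on either strand (ACACCT when reversed) and to the palindrome CACGTG, the E-box recognised by MITF and other basic helix-loop-helix proteins.

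LINC02404, chr12:91876878-91877177: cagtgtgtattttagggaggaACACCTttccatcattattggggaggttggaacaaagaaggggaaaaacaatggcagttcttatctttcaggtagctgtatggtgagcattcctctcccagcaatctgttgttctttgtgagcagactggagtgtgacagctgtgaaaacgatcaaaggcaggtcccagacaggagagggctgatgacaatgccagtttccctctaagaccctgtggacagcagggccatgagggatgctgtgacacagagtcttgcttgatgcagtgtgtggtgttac

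LOC102724463, chr6:14658901-14659200: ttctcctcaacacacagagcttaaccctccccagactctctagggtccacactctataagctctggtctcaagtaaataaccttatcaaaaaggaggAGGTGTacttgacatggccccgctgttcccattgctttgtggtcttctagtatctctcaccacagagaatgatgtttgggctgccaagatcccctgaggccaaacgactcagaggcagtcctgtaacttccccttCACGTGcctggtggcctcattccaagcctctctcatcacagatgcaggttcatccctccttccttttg

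At LINC02404 the summits were at 91877176 in replicate 1 and 91877185 in replicate 2, 48 bp past the start site for replicate 1, with ranks of 325 and 317. Its match to AGGTGT lay 274 bp from the replicate 1 summit, at the far end of the window, which ends just past that summit and before the replicate 2 summit. Of 9 motifs searched in the windows, the match centred nearest to the replicate 1 summit was TGTGGT, the core of RUNX sites, at 6 bp. Those letters occurred somewhere in 13.1% of all windows, a share that does not regard their distance from a summit. At LOC102724463 the summits were at 14659127 and 14659161, with ranks of 21938 and 18568, among the weaker sites. The CACGTG of that window was centred 9 bp from the replicate 1 summit and 25 bp from the replicate 2 summit, and its AGGTGT lay 126 bp from the replicate 1 summit. The windows of LOC105374020 and LOC105378106 held neither AGGTGT nor CACGTG, and AGGTGTGA, which contains AGGTGT, was in none of the 4. Among all 35116 RefSeq windows of this length, 11.4% held AGGTGT, 0.980% AGGTGTGA and 7.26% CACGTG. A match describes letters only, and the sequence of the other members was not analysed here.

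Distances to a TSS in the deposited annotation ran from 250065 bp, just inside the limit, to 3663487 bp, with a median of 393758 bp and quartiles of 298568 and 553623 bp. The most distant shared site left outside the limit lay at 249170 bp. Upstream of the nearest gene lay 267 members (45.6%), against 43.0% of all shared regions. The nearest gene was protein-coding for 272 members (46.5%, against 57.2% of all shared regions), a non-coding RNA for 237 (40.5% against 29.0%) and a pseudogene for 71 (12.1% against 11.7%). Among the like non-repeat intergenic sites at 50 to 250 kb and within 50 kb, the nearest gene was protein-coding for 57.1% and 64.7%, a non-coding RNA for 36.9% and 30.3%, and a pseudogene for 5.00% and 4.27%. Of the 71 members nearest to a pseudogene, 17 had LOC441666, 11 had ZNF733P and 9 had UBE2MP1. All members of these 3 genes lay within 1 Mb of a peak summit annotated as satellite repeat.

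The absence of nearby genes depended on which genes were counted and on whether distance was taken to a gene or to its TSS. By RefSeq genes of GRCh38.p14, with many more non-coding transcripts, 165 members (28.2%) lay inside a gene, 135 of them inside a long non-coding RNA gene and 26 inside a protein-coding gene. A gene of any kind was within 10 kb of 220 members (37.6%) and within 250 kb of 563 (96.2%), with a median gap of 29410 bp. These gaps run to the nearest edge of a gene, while the rule for members uses the distance to a TSS. Of the 558 members compared with RefSeq start sites, 377 (67.6%) had one within 250 kb and 5.20% within 10 kb. The median distance to such a start site was 154819 bp. Protein-coding genes remained distant, with 448 members more than 250 kb from any and a median gap of 406175 bp. Only 22 members had no RefSeq gene of any kind within 250 kb, and 15 of these lay within 1 Mb of a peak summit annotated as satellite repeat.

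**Figure D1:**
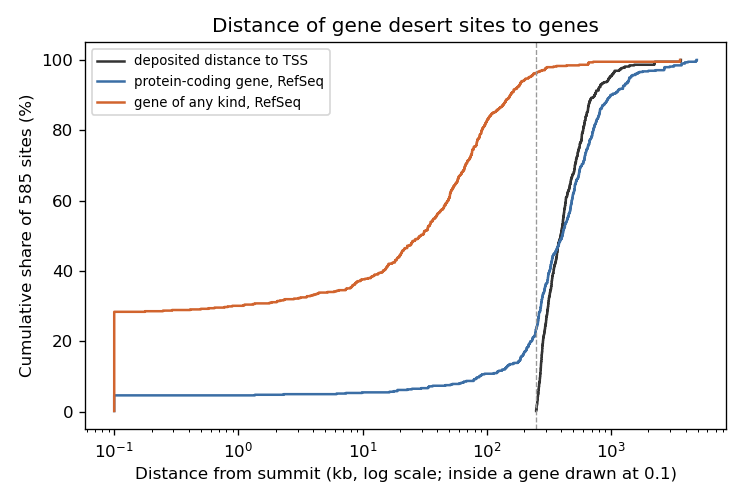
Cumulative share of the 585 sites (vertical axis, %) by distance from the replicate 1 summit in kb (log axis). Distances are to the deposited TSS, and to the nearest edge of a RefSeq protein-coding gene and of a RefSeq gene of any kind. Sites inside a gene are drawn at 0.1 and the dashed line is 250 kb. The curve for genes of any kind reaches 96.2% at 250 kb, and that for protein-coding genes 23.4%.

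The 26 members inside protein-coding genes included 10 in ROBO2, the receptor for SLIT guidance proteins, on chromosome 3. The deposited annotation named ROBO2 or ZNF717 as their nearest gene, at 418055 bp or more. One of them, with summits at 76310242 and 76310230, lay 638 bp from a RefSeq start site of ROBO2 (percentiles 69.6 and 82.1), and another at 76313942 and 76313952 lay 3062 bp from it (71.7 and 81.2). The strongest of the 10, at 76324217 and 76324244, had ranks of 1471 and 906 and lay 13337 bp from that start site. RPS6KC1 on chromosome 1, a protein related to ribosomal S6 kinases, held 5, the strongest at 213492618 and 213492611 with ranks of 727 and 344.

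The members were unevenly spread over chromosomes. Chromosome 2 held 72 members (12.3%, against 8.19% of all shared regions), chromosome 4 held 56 (9.57% against 4.85%) and chromosome 3 held 53 (9.06% against 7.06%). Chromosome 1 held 39 (6.67% against 12.4%), chromosome 11 held 10 (1.71% against 4.45%) and chromosome 20 held 6 (1.03% against 4.00%). No member lay on chromosome 19, which had 216 shared regions, and 0 of 585 allows a share of up to 0.513%, taken as 3 counts of the total and not as a Wilson limit. These shares follow in part from the rule, since a site far from genes needs a stretch without them.

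Some members lay beside satellite repeats, although their own summits fell outside annotated repeats. A satellite summit of either list was within 1 Mb of 66 members (11.3%), a grouping chosen after the values were seen. Of these, 17 were on chromosome 10, 12 on chromosome 7 and 11 on chromosome 16. Among them were the 5 members farthest from a TSS. On chromosome 1 the summits at 125182599, 125180593 and 125174139 in replicate 1 lay near the centromere, with EMBP1, a pseudogene, as nearest gene at 3663487, 3661481 and 3655027 bp. On chromosome 7 those at 61047295 and 61051481 were 2256761 and 2252575 bp from ZNF733P, also a pseudogene. The 3 chromosome 1 sites had percentiles of 83.8, 59.8 and 87.8 in replicate 1, and those at 125182599 and 125174139 had 75.9 and 86.7 in replicate 2. The one at 125180593 had a score of 2.00 there, the lowest of that list (rank 40494). Of members without a satellite summit within 1 Mb, the most distant lay 1541149 bp from CDH8 on chromosome 16, a neural cadherin.

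The members scored much as other shared regions did. Their median percentile was 62.1 in replicate 1 (quartiles 41.0 and 81.0) and 72.2 in replicate 2 (53.6 and 85.2), against 63.6 and 70.5 for all shared regions. Shared non-repeat intergenic sites 50 to 250 kb from a TSS, 2200 in number, had medians of 64.9 and 72.9, and the 2577 within 50 kb had 64.9 and 73.7. In the highest score decile of both lists were 64 members (10.9%, interval 8.66% to 13.7%), against 12.4% of all shared regions, 14.4% of those at 50 to 250 kb and 15.1% of those within 50 kb. The interval of the members held the first of these 3 values and ended below the other 2. Across the members, replicate scores were correlated with a Spearman's rho of 0.866, against 0.852 across all shared regions. It was 0.870 for non-repeat intergenic sites at 50 to 250 kb and 0.865 within 50 kb. All these values describe sites of the same pair of libraries.

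Like most shared regions, members stood higher in the replicate 2 list than in the replicate 1 list, except beside satellites. The percentile was higher in replicate 2 for 452 of 585 members (77.3%), with a median change of 6.43 points. Of all shared regions, 67.0% were higher, by a median of 3.63 points. Among the 519 members without a nearby satellite summit, 432 were higher (83.2%), with a median change of 7.59 points. Their median percentile was 58.9 in replicate 1 and 72.9 in replicate 2. Without a nearby satellite summit, 74.0% of all shared regions were higher, with a median change of 5.12 points. The same held for 75.5% of non-repeat intergenic sites at 50 to 250 kb (4.99 points) and 71.5% within 50 kb (4.71 points). Of the 66 members near satellites, 20 were higher (30.3%), with a median change of -5.21 points and median percentiles of 81.9 and 70.7. A median change is taken over the changes of single sites and is not the difference of the medians. All shared regions near satellites, 4425 in number, had a median change of -2.85 points. The nearer non-repeat intergenic sites beside satellites went the other way, with 1.78 points for the 55 at 50 to 250 kb (58.2% higher) and 4.48 points for the 90 within 50 kb (60.0% higher). The part of satellite proximity, or of the longer replicate 2 list, in these changes was not tested.

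**Figure D2:**
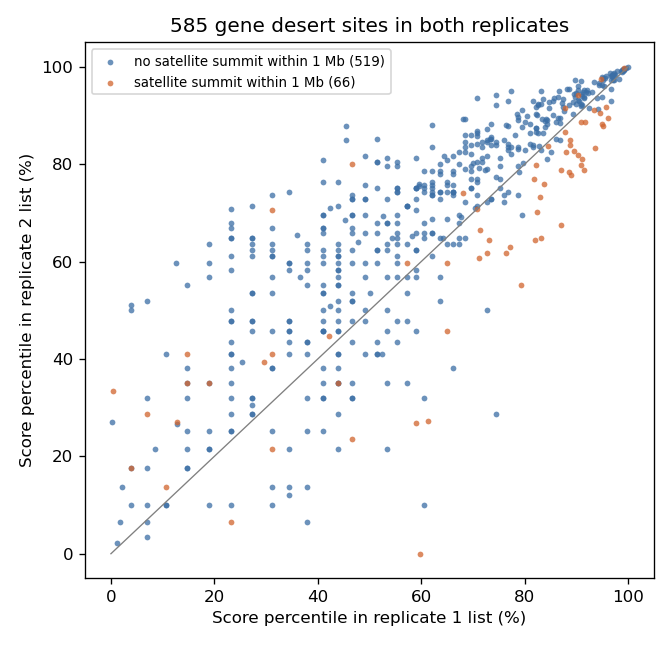
Score percentile of each of the 585 gene desert sites in the replicate 1 list (horizontal, %) and the replicate 2 list (vertical, %), with the line of equal percentile; orange points have a satellite summit within 1 Mb. Of the 519 blue points 432 lie above the line, and of the 66 orange points 20 do.

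Over all members, median score percentiles were no lower farther from a TSS inside the deserts. The share in the highest score decile was smaller there, with overlapping intervals. The 395 members at 250 to 500 kb had median percentiles of 59.6 and 71.4 in replicates 1 and 2. The 163 at 500 kb to 1 Mb had 64.9 and 73.2, and the 27 beyond 1 Mb had 66.1 and 73.7. In the highest score decile of both lists were 47 of the 395 (11.9%, interval 9.07% to 15.5%), 16 of the 163 (9.82%, 6.13% to 15.3%) and 1 of the 27 (3.70%, 0.657% to 18.3%). Without the members near satellites the 3 bands held 363, 138 and 18 sites, with highest-decile shares of 11.8%, 10.1% and 5.56%. Their medians were 58.9, 60.6 and 66.7 in replicate 1. In replicate 2 they were 72.9, 71.4 and 77.7, so the middle band was the lowest there. The medians differ by less than the replicates do within a band.

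Desert peaks recurred about as often as nearer ones. Of the 799 replicate 1 peaks that met the annotation conditions, 73.2% (interval 70.0% to 76.2%) had a replicate 2 partner, against 69.9% of all replicate 1 peaks, 71.8% (70.1% to 73.3%) at 50 to 250 kb and 70.8% (69.3% to 72.2%) within 50 kb. Of 1049 such replicate 2 peaks, 583 had a partner (55.6%, 52.6% to 58.6%), against 56.1% of all. The mean of the replicates was 64.4% ± 12.5 (SD, n = 2) for desert peaks and 63.0% ± 9.78 (SD, n = 2) for all peaks. The 2 shares count largely the same pairs, 585 and 583 for desert peaks, over lists of different length. Their SD therefore follows the list lengths and does not measure how recurrence varies between replicates. Weak desert peaks seldom had a partner and strong ones nearly always did: by score quartile of its own list, replicate 1 ran from 33.3% up to 96.8%, and replicate 2 from 16.5% up to 96.0%. In the second-lowest quartile of replicate 1 it was 72.8% (66.3% to 78.4%), against 64.8% (61.2% to 68.2%) at 50 to 250 kb and 63.1% (59.9% to 66.3%) within 50 kb. The same quartile of replicate 2 gave 33.1%, 35.6% and 36.1%, in the opposite order. In replicate 2 the partners of 559 members met the same annotation conditions, and those of the other 26 fell in an annotated repeat. The summits of a member were a median of 30 bp apart, and 402 pairs (68.7%) were within 50 bp, 5 of them at the same base.

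**Figure D3:**
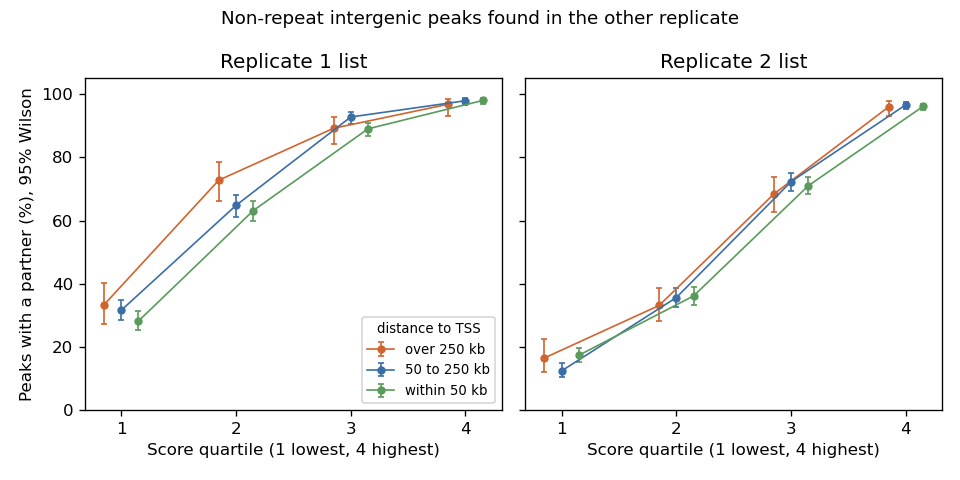
Share of non-repeat intergenic peaks with a partner in the other replicate (vertical, %, bars are 95% Wilson intervals) by score quartile of their own list, for 3 classes of distance to the TSS. The desert curve climbs from 33.3% to 96.8% in replicate 1 and from 16.5% to 96.0% in replicate 2, close to the curves of nearer peaks.

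The 10 strongest members, by the sum of their 2 ranks, were spread over 6 chromosomes. The first, at 52965254 and 52965263 on chromosome 2, had scores of 704.8 and 766.9 (ranks 3 and 6) and lay 262639 bp upstream of MIR4431, a microRNA gene. It fell inside the RefSeq non-coding gene LOC105369165, as did members with replicate 1 summits at 52960056 (ranks 1551 and 1134) and 52961292 (ranks 3476 and 3941). The second, at 164014364 and 164014382 on the same chromosome, scored 352.5 and 537.2 (ranks 149 and 106) and lay 278357 bp upstream of FIGN, which encodes the microtubule-severing protein fidgetin. The third, at 89974142 and 89974136, scored 285.4 and 501.2 (ranks 263 and 143). It lay inside the immunoglobulin kappa locus of the gene table and 154223 bp from a satellite summit.

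The next 4 had ranks between 191 and 296 in both lists. On chromosome 6, summits at 48429104 and 48429053 lay 360415 bp upstream of PTCHD4, a protein with a patched domain (ranks 269 and 215). On chromosome 1, summits at 80892705 and 80892697 lay between ADGRL4 and ADGRL2, adhesion receptors of the latrophilin group (ranks 294 and 191). Another chromosome 6 site, at 9456364 and 9456350, was in the interval between SLC35B3 and TFAP2A described below (ranks 277 and 228). On chromosome 12, summits at 85568534 and 85568507 lay 268006 bp from the TSS of RASSF9, between it and ALX1, a homeodomain factor of face development (ranks 261 and 296).

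The last 3 of the 10 were the sites near RGMB, LINC02404 and TLE1. On chromosome 5, summits at 98497582 and 98497609 lay 271713 bp upstream of RGMB, a co-receptor for bone morphogenetic proteins, with ranks of 354 and 268. A further member at 98510262 and 98510270, also upstream of RGMB, had ranks of 414 and 425. The LINC02404 site shown above, on chromosome 12, lay 263102 bp from BTG1, an inhibitor of proliferation, the nearest protein-coding gene. On chromosome 9, summits at 81375004 and 81374988 lay 314531 bp from TLE1, a Groucho corepressor, with ranks of 456 and 344. All 10 were within the 500 strongest peaks of each list.

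Members were grouped by the protein-coding genes on either side in the RefSeq table. The 550 members with a gene on both sides and none over them fell into 226 such intervals, with a median length of 1.32 Mb. A single member was in 107 of them, while 24 held 5 or more and together 193 members (33.0% of all). Another member was within 100 kb of 319 members (54.5%). Another shared region of any kind was within 100 kb of 69.7% of members, a lower share than the 84.3% of all shared regions. The next shared region of any kind was a median of 36965 bp away, against 25132 bp for sites at 50 to 250 kb, 22589 bp within 50 kb and 15715 bp over all shared regions. Without members near satellites it was 47226 bp.

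Of the 8 intervals described first, 3 hold a centromere. Of these 8, 6 held 11 or more members, and the other 2 were taken from 4 intervals with 9 members each because they had the lowest rank sums of a strongest site. Between ZNF37A and ZNF33B on chromosome 10, zinc finger genes on opposite arms, lay 17 members in 257.2 kb, all near satellites, with median percentiles of 87.9 and 81.9. Between ZNF716 and LOC124901649 on chromosome 7 lay 12 (57.4 and 50.8), and between LOC124903767 and SHCBP1 on chromosome 16 lay 11 (82.3 and 78.3), again all near satellites. The percentile was higher in replicate 2 at 3 of the 17, 4 of the 12 and 0 of the 11. These intervals also held 146, 356 and 63 shared regions of any annotation.

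The other 5 lay on chromosome arms and had no member near a satellite. The one with the most members, 13, was the 1.96 Mb between SLC35B3, a sulfate donor transporter of the Golgi, and TFAP2A, a transcription factor of neural crest and melanocytes, on chromosome 6. Its median percentiles were 68.5 in replicate 1 and 85.2 in replicate 2, and 11 of the 13 were higher in replicate 2. The strongest, at 9456364, scored 280.3 and 441.6 and lay 940313 bp from TFAP2A. The weakest by replicate 1, at 9252982, scored 3.34 and 14.5, so sites of very different strength shared the interval. The 3 members nearest to TFAP2A, at 9766227, 9938982 and 10071936, lay inside OFCC1, a transcribed pseudogene in the table, and had replicate 2 percentiles of 65.9, 88.1 and 75.4.

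TBX3 itself borders one of the 5, the 1.27 Mb between TBX3 and MED13L, a subunit of the Mediator kinase module, on chromosome 12. It held 9 members, with median percentiles of 85.6 and 93.5, and 8 were higher in replicate 2. The 4 nearest to TBX3 lay 254638, 268866, 270612 and 310735 bp upstream of its TSS, with scores of 51.5, 16.8, 54.3 and 10.8 in replicate 1 and 123.7, 36.8, 126.7 and 30.0 in replicate 2. The strongest 3 lay deeper in the interval. A site at 115341650 and 115341632, 657486 bp upstream of TBX3, scored 105.8 and 193.3 (ranks 1838 and 1341). Sites at 115508099 and 115508112 (159.0 and 305.8, ranks 880 and 554) and at 115599072 and 115599077 (146.7 and 265.8, ranks 1038 and 743) had MIR620 as nearest gene and lay inside RefSeq non-coding genes. The remaining 2, at 115375325 and 115630327, had replicate 1 percentiles of 34.5 and 3.79. Thus 5 of the 9 were above the 85th percentile in both lists and the others were not.

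Between IRX1, an Iroquois homeodomain factor, and ADAMTS16, a secreted protease, lay 11 members on chromosome 5, with median percentiles of 52.5 and 50.0. The strongest, at 4199538 and 4199487, had ranks of 1815 and 1495 and lay 598135 bp from IRX1. The others ranged from 23.1 to 72.7 in replicate 1. Between CD83, a surface protein of dendritic cells, and JARID2, a cofactor of Polycomb repressive complex 2, lay 11 members on chromosome 6, including the LOC102724463 site. None of them reached the 75th percentile in replicate 1, where the median was 43.8, and all 11 were higher in replicate 2, with a median of 63.6. Between TLE4 and TLE1, a pair of Groucho corepressors, lay 9 members on chromosome 9, with medians of 69.6 and 79.6, and all 9 were higher in replicate 2. Beside the strong site named above, one at 81373457 and 81373515 was at the percentiles 70.7 in replicate 1 and 93.5 in replicate 2.

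Further intervals, named after their values were seen, held as many members or 1 fewer. Between FAT4, an atypical cadherin, and INTU, a planar polarity protein, lay 9 on chromosome 4. Their median percentiles were 78.8 and 88.3, and the strongest, at 126899412 and 126899427, had ranks of 2786 and 2559. Between CDH8 and CDH11, both cadherin genes, lay 8 on chromosome 16 (59.8 and 68.6), and between LMO4, a LIM-domain factor, and PKN2, a kinase, lay 8 on chromosome 1 (48.2 and 56.3). None of the members in these 3 intervals was near a satellite summit.

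**Figure D4:**
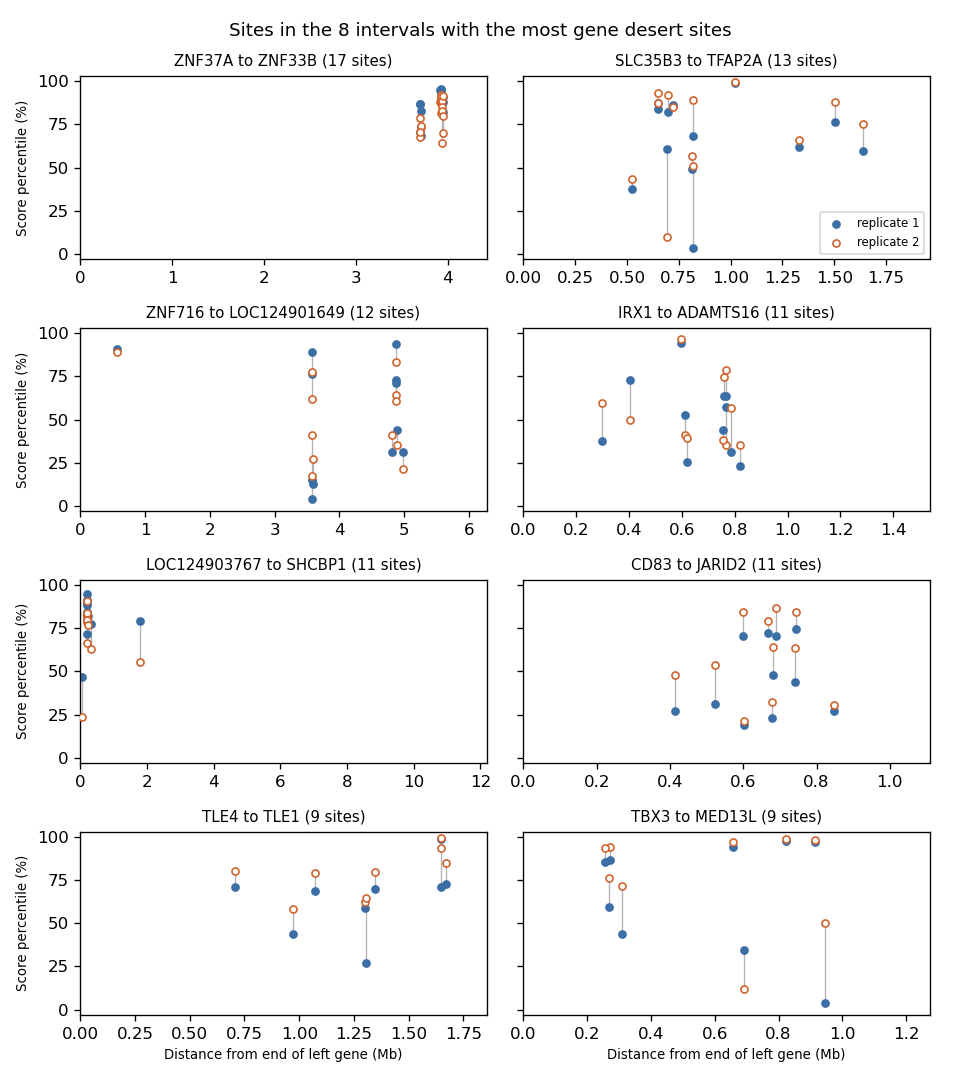
Sites in the 8 intervals with the most members, with the distance from the end of the left flanking gene in Mb (horizontal) and the score percentile in each list (vertical, %); a grey line joins the values of a site. In the CD83 to JARID2 and TLE4 to TLE1 panels every open circle (replicate 2) is above its filled one, and in the LOC124903767 to SHCBP1 panel every one is below.

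Nearest genes were counted in 5 lists of genes grouped by function or tissue, which were written with earlier results of these data known. The deposited nearest gene was one of the neural adhesion and guidance list for 41 members (7.01%, interval 5.21% to 9.37%), spread over 17 genes. The share was 1.73% (1.26% to 2.36%) at 50 to 250 kb, 0.504% within 50 kb and 1.38% (1.24% to 1.54%) over all shared regions. Sites of 1 gene are not independent, genes with long flanks are nearest to more distant sites by the rule itself, and the difference was not tested. EPHA4, an ephrin receptor, was nearest to 7, with the strongest at 221200676 and 221200681 on chromosome 2 (scores 125.4 and 255.0, ranks 1385 and 803). The cadherin CDH11 was nearest to 5 (best ranks 6830 and 10581) and the ephrin receptor EPHA3 to 4 (3114 and 2322). All 4 EPHA3 sites lay within 1 Mb of a satellite summit, and the list shares were not computed without such members. CDH8 was nearest to 3, with a strongest site 1541149 bp away (ranks 2972 and 1173), and SEMA6D, a semaphorin, to 3 (4709 and 4020).

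Developmental transcription factors were nearest to 14 members (2.39%, 1.43% to 3.98%, against 1.77% at 50 to 250 kb and 1.25% of all shared regions), from 8 genes. TBX3 accounted for 6 of these and IRX1 for 2. ZFPM2, a cofactor of GATA factors, had a site at 104955688 on chromosome 8 with ranks of 2604 and 1922, SALL3 one on chromosome 18 with ranks of 6996 and 3912, and MAF one on chromosome 16 with ranks of 5123 and 7657. Ion channels and neurotransmitter receptors were nearest to 13 members (2.22%, 1.30% to 3.76%, against 0.864% and 0.744%), from 9 genes. KCNU1, a potassium channel, was nearest to 3, the serotonin receptor gene HTR2A and the potassium channel gene KCNH7 to 2 each, and the glutamate receptor gene GRIK2 (ranks 4919 and 2956) and the potassium channel gene KCNJ3 (5607 and 3068) to 1 each.

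Secreted growth factors and morphogens were nearest to 1 member (0.171%, 0.0302% to 0.962%, against 0.500% and 0.300%), that of PDGFC, a platelet-derived growth factor, with ranks of 8506 and 10882. Melanocyte and melanoma genes were nearest to 2 members (0.342%, 0.0938% to 1.24%, against 0.455% and 0.471%). Both belonged to TYRP1, an enzyme of melanin synthesis, at 628188 and 531042 bp upstream on chromosome 9. Their percentiles were 60.6 and 27.2 in replicate 1, and 74.4 and 71.4 in replicate 2.

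**Figure D5:**
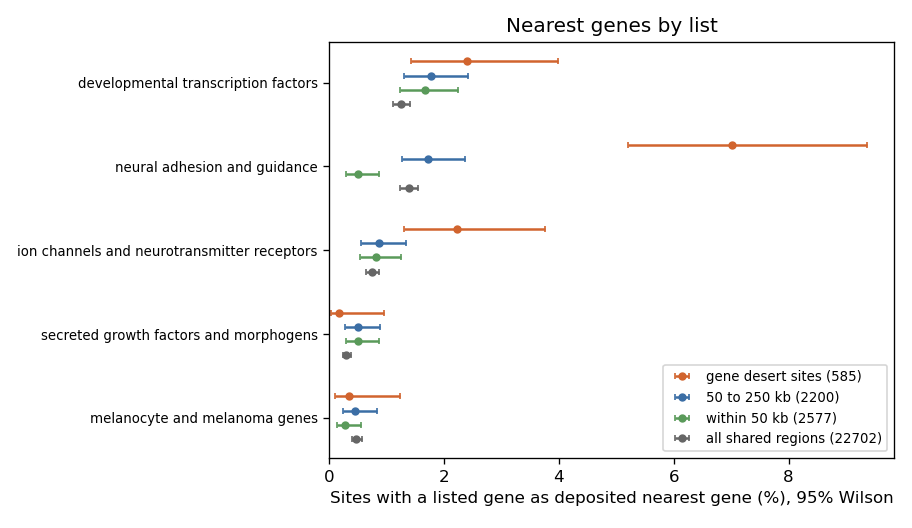
Share of sites whose deposited nearest gene is in each of 5 lists (horizontal, %, bars are 95% Wilson intervals), for gene desert sites, nearer non-repeat intergenic sites and all shared regions. The neural adhesion and guidance list is at 7.01% of desert sites and 1.38% of all shared regions, and the bars of the melanocyte list overlap across all 4 sets.

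Counting either flanking protein-coding gene, which gives each site 2 genes in place of 1, gave larger shares. By that count 109 members (18.6%, against 6.64% at 50 to 250 kb) had a neural adhesion and guidance gene on a side, 88 (15.0% against 9.77%) a developmental transcription factor and 29 (4.96% against 1.95%) a melanocyte or melanoma gene. Channels and receptors flanked 26 (4.44% against 2.32%), while growth factors and morphogens flanked 8, a lower share than at 50 to 250 kb (1.37% against 2.18%). Shares by either flank were not computed for all shared regions or for sites within 50 kb. Sites of 1 interval are not independent, and genes beside long gaps flank more members by the rule itself. The differences between these shares were not tested. The 29 members beside a melanocyte or melanoma gene involved 6 such genes, against 11 for the sites at 50 to 250 kb. Of the 29, 13 lay beside TFAP2A and 9 beside ZEB2, a zinc finger factor of melanocytes and of phenotype switching in melanoma. TFAP2A and ZEB2 are also in the developmental transcription factor list, so the members beside them are counted in both shares. The ZEB2 interval, named after its values were seen, runs to ACVR2A on chromosome 2 and had median percentiles of 46.6 and 53.6. Its strongest site, at 145914959 and 145915006, had ranks of 7495 and 6622 and lay 1394840 bp from ZEB2.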

How the data were processed

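ChIP-seq peak lists of 2 anti-HA TBX3 samples were used, and the 2 inputs were not analysed here. Per the submitters' processing notes, FastQC 0.11.7, cutadapt 2.8, Bowtie2 2.3.5, MACS2 2.1.2, SAMtools 1.9 and build hg38 were used, in roles that are not given in the sources used here. Per the file headers, each sample's summits were annotated separately with annotatePeaks.pl of HOMER. The score of each peak is the authors' deposited value, used only within its own list. Neither the threshold nor the reads behind a peak were given, so depth is unknown.

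Groups came from sample titles. Mutually nearest summits within 200 bp were paired (Python 3.11.15, pandas 2.3.3, scipy 1.17.1). To check the pairing code, partners were planted beside a random part of the 32012 replicate 1 summits on named chromosomes. All were planted closer than the pairing distance, so the recovery of 99.98% of them was largely set in advance. Gene tables were from RefSeq GRCh38.p14. Of 22211 start sites implied by deposited distances, 99.1% lay within 5 kb of their gene there, and 314 of 315 member gene identifiers matched. Genes listed in the first 10 Mb of chromosomes 13, 14, 15 and 22 were dropped. Promoter windows of chromosome 8 were not used here.

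The text names the 10 members with the lowest rank sum, the 5 farthest from a TSS, the 8 intervals with the most members and up to 5 genes per list by number of members, with ties in both broken by the lowest rank sum of a site. Motif searches at all summits need a genome and were not run. Members and lists were chosen with earlier results of these data known. Alternatives changed the pairing distance, TSS distance, score limit, chromosomes, annotation and replicates. The flanking genes of 1 named site are not reported here.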

Additional observations from a re-analysis of the deposited data

How the results depend on the processing

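Over 19 results, 107 alternative values were computed, of which 87 stayed within the limit set for them. That limit was 1.5 times for counts, the spread between replicates for percentiles and partner shares, and the Wilson interval for shares of members. For partner shares that spread also holds the different lengths of the lists, so the limit is wide. A reversal was looked for only in the median change from replicate 1 to 2, which kept its sign wherever it was computed. Keeping only named chromosomes left every value as it was, since no member lay elsewhere. The cause of changes beyond the limit was not tested, except where a setting itself removes sites. The number of members was 190 beyond 500 kb, 362 for peaks at or above the median score, 22 with no RefSeq gene within 250 kb, and 799 to 1049 when a single replicate was used without a partner. Above the median score the median percentiles were 75.2 and 82.4 and the replicate 1 partner share 86.8%. From a single replicate the median percentile was 51.4 in replicate 1 and 51.9 in replicate 2. Beyond 500 kb the list shares were 1.05% for developmental transcription factors, 9.47% for neural adhesion and guidance, 0.526% for channels and receptors and 0% for growth factors. By either flanking gene the 5 lists had 15.0%, 18.6%, 4.44%, 1.37% and, for melanocyte genes, 4.96%. Without members near satellites, chromosome 10 held 3.28% and chromosome 22 held 0.771% of members. The settings that use satellites, either flanking gene or all RefSeq genes were chosen after seeing the data. The 200-base and replicate 2 motif windows were not run, for want of a genome. No paired analysis was possible because no result comes from a test and the inputs gave no values. Unknown depth limits any reading of sites missing from a list.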

Other observations

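Peaks that met the annotation conditions but had no partner were mostly weak. In replicate 1 there were 214, with a median percentile of 22.3 and 5 in the highest decile, and in replicate 2 there were 466, with a median of 32.0 and 3 in the highest decile. Some of the strong ones narrowly missed the pairing distance. On chromosome 1, with PRDM2, a zinc finger methyltransferase gene, as nearest gene at 268251 bp, a replicate 1 summit at 14017632 (rank 1084) and a replicate 2 summit at 14017872 (rank 761) lay 240 bp apart. The strongest without a partner in replicate 1, at 90382635 on chromosome 2 (rank 1062), had its nearest replicate 2 summit 831 bp away. On chromosome 16, a summit at 34592833 in replicate 1 (rank 1119) and one at 34593246 in replicate 2 (rank 2899) lay 413 bp apart.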
